A study of Homo sapiens with 8 samples.

Results

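The genes described here are 38 genes of the actin cytoskeleton and of the transcriptional programmes that read its state, the targets of SRF (serum response factor) and of the co-activator YAP. They were listed by symbol, with no threshold on their values but with earlier results of these data known, and all 38 were found among the 26364 genes of the count table. The study asked how the place of survivin in the cell bears on the response of glioblastoma cells to the methylating drug temozolomide (TMZ). The readout was RNA-seq read counts per gene in 8 libraries of LN229, an established human glioblastoma cell line. Every group carried a stably integrated pcDNA3.1 vector, whose CMV promoter drives a survivin fusion to green fluorescent protein. The clones were picked as resistant to G418. Surv-GFP cells (clone D6) carry the fusion with a working nuclear export signal, which lies mostly in the cytoplasm. SurvNESmut-GFP cells (clone L2) carry the fusion with a mutated export signal, which lies mostly in the nucleus. Each clone was sequenced untreated and after 50 µM TMZ for 48 h, with 2 libraries, a and b, in each of the 4 groups. Each genotype is thus a single clone, so that a difference between them cannot be told apart from other differences between the 2 clones. The study speaks of biological replicates run in technical duplicates, and the labels do not say which of these libraries a and b are, so that p-values measure the spread between these libraries, which may be technical.

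Actin cycles between monomers and filaments, and the filaments are stiffened by tropomyosins, pulled by myosin II and tied to adhesions by proteins such as filamin, talin, vinculin and zyxin. Free actin monomers hold the co-activators MRTF-A and MRTF-B in the cytoplasm. When monomers are used up, MRTF enters the nucleus and acts with SRF at CArG boxes of actin, calponin and tropomyosin genes. YAP and its relative TAZ enter the nucleus when tension is high or the Hippo kinases are low, and act with TEAD factors at genes such as CTGF, CYR61 and ANKRD1. In glioma cells, as in other adherent cells, these programmes are known for their part in spreading and migration.

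RefSeq promoter windows on GRCh38.p14 were at hand for 34 of the 38 members (59 windows), and ACTB, TAGLN, MYL9 and CYR61 had no entry. In the 250 bases before each start, the TEAD core word GGAATG was searched for on both strands (as GGAATG or CATTCC), and so was the CArG box, to which SRF binds and which reads the same way on both strands. The TEAD word stood in 15 of the 59 member windows (25.4%) against 4175 of all 35116 windows (11.9%). A CArG box stood in 7 member windows (11.9%) against 407 of all windows (1.16%). The TEAD word was found at 14 members, namely ACTA2, CNN3, CALD1, MYH9, MYH10, FLNC, ACTN1, VCL, PFN1, CTGF, ANKRD1, AMOTL2, AJUBA and THBS1. The CArG box was found at 7, namely ACTG1, ACTG2, CNN2, TPM4, FLNA, ACTN1 and SRF. ACTN1 alone held both, which shared no base. The windows of CTGF, ANKRD1 and THBS1 are shown as examples with the TEAD word at genes that differed widely between the clones. CAPG and TPM1 also differed widely, and their windows held neither motif. The windows of SRF and ACTG2 are shown as the ones with a pair of CArG boxes. Matches are in capitals.
The CTGF window, chr6:131951373-131951622 on the minus strand, holds the TEAD word at 169, 104 and 95 bases before the start.
CTGF: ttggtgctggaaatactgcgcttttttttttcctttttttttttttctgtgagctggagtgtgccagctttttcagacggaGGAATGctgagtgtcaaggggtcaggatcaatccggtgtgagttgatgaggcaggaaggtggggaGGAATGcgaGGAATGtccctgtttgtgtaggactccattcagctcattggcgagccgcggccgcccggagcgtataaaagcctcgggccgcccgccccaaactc
The ANKRD1 window, chr10:90921088-90921337 on the minus strand, holds it at 220 and 128 bases before the start.
ANKRD1: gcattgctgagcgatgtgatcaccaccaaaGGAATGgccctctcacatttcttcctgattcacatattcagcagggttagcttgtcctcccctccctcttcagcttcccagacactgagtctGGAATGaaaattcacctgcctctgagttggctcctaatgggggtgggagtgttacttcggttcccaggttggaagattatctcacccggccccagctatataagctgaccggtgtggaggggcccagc
The THBS1 window, chr15:39580829-39581078 on the plus strand, holds it at 46 bases before the start.
THBS1: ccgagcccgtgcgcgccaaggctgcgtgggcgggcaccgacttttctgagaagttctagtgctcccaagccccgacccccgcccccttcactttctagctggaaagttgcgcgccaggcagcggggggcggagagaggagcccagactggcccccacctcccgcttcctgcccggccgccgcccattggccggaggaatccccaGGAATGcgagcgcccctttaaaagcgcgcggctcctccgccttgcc
The SRF window, chr6:43171019-43171268 on the plus strand, holds CArG boxes at 30 and 10 bases before the start.
SRF: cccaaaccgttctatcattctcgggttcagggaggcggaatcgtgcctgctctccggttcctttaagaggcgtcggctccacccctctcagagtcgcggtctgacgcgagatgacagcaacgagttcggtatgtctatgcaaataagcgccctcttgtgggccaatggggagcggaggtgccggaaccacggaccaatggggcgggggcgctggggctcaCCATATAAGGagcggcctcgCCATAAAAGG
The ACTG2 window, chr2:73892758-73893007 on the plus strand, holds CArG boxes at 110 and 73 bases before the start.
ACTG2: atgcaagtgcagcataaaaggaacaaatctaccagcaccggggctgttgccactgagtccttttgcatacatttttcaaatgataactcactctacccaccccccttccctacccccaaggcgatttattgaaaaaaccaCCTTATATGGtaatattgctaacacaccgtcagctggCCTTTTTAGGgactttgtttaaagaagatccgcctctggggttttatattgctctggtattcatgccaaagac
These matches describe the letters of the windows. They are no evidence of a bound factor, and the lack of a match says nothing about one.

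The libraries held 15826923 to 18861603 counts on genes. Of all counts, 11.2% to 14.3% fell on no annotated feature and 1.19% to 1.28% could not be given to a single gene. Of the glioma markers, VIM, NES and CD44 were high and SOX2 and OLIG2 were detected in every library, but SOX2, OLIG2 and S100B were lower in untreated SurvNESmut-GFP than in untreated Surv-GFP (log2 -1.40, -2.29 and -4.26). S100B stood at 798 and 756 CPM in untreated Surv-GFP and at 41.2 and 40.1 CPM in untreated SurvNESmut-GFP, and GFAP, the astrocyte filament protein, stood at 0 to 0.921 CPM (read counts scaled to a common library size with TMM factors). The summed CPM of 3 leukocyte markers was 12.4 to 21.6, nearly all of it CD68, with PTPRC at 0 in 6 of 8 libraries. The sums over 3 endothelial and 3 epithelial markers were at most 0.867 and 0.504 CPM, and of the 4 muscle markers MYOCD was at 0 in all libraries, DES and MYH11 did not pass 0.108 CPM, and SMTN stood at 117 to 180 CPM. BIRC5, the gene of survivin, whose reads come from the endogenous gene and may include the fusion's, stood at 1152 and 1113 CPM in untreated Surv-GFP and at 407 and 414 CPM in untreated SurvNESmut-GFP. With TMZ it rose to 1938 and 2029 CPM in Surv-GFP (log2 0.81) and fell to 262 and 253 CPM in SurvNESmut-GFP (-0.67). The 2 libraries of SurvNESmut-GFP with TMZ differed most from each other (chi-square per degree of freedom 5.74, against 2.2 to 2.66 in the other groups), and library a held the higher value for many members.

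Members made up 1.68% to 1.72% of the gene counts in untreated Surv-GFP, 1.40% in both Surv-GFP libraries with TMZ, 2.5% and 2.52% in untreated SurvNESmut-GFP and 2.56% and 2.81% in SurvNESmut-GFP with TMZ. The share of all members together was thus lowest in Surv-GFP with TMZ and higher in all SurvNESmut-GFP libraries than in any Surv-GFP library. The SRF and YAP target genes alone did not fall in Surv-GFP. They summed to 572 and 507 CPM untreated and to 535 and 560 CPM with TMZ, groups that overlap. In bulk RNA, fewer cells that express a gene and less of its RNA per cell cannot be told apart. Compared per kilobase of exon (GENCODE v29 exon unions), the cytoplasmic actins stood highest. ACTG1 was at 1065 and ACTB at 761.9 CPM per kb in untreated Surv-GFP, followed by profilin (PFN1, 241), cofilin (CFL1, 223) and filamin A (FLNA, 184). In untreated SurvNESmut-GFP, THBS1 stood at 214 CPM per kb, close to the 218 of TAGLN2, whereas it was at 14.8 in untreated Surv-GFP. At the low end, TAGLN, CNN1, ACTG2, ANKRD1, MYL9 and FLNC were under 1 CPM per kb in untreated Surv-GFP. FLNC, a filamin of muscle, had 0 or 1 count in every library and was the only member that was not tested.

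**Figure D1:**
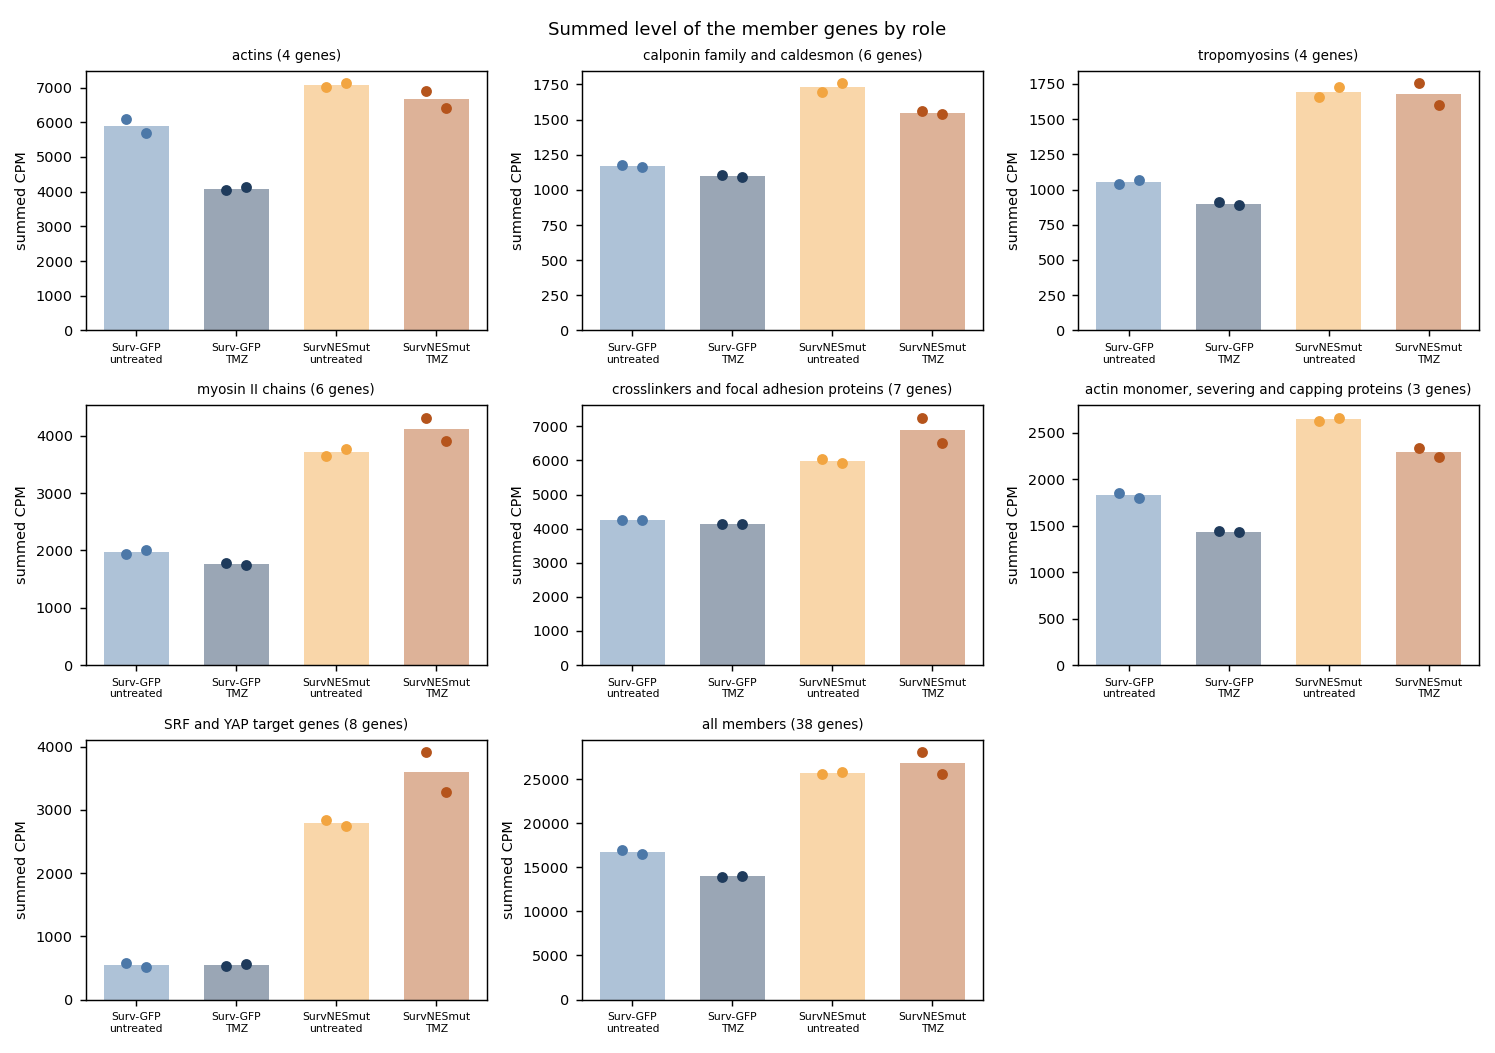
Summed CPM of the members of each role and of all 38 members, with a bar for the mean of a group and a point for each of its 2 libraries. The SRF and YAP target genes summed to a mean of 539.6 CPM in untreated Surv-GFP and 2791 CPM in untreated SurvNESmut-GFP, most of the latter from THBS1, and the actins to 5888 CPM untreated and 4087 CPM with TMZ in Surv-GFP.

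Between the clones, most members were higher in SurvNESmut-GFP. Without TMZ, 26 of the 37 members tested were called higher (70.3%) against 34.7% of all 14201 genes tested, and 4 lower (10.8%) against 29.4%. With TMZ, 27 were called higher (73.0%) against 34.5% and 7 lower (18.9%) against 34.7%. A call is an adjusted p under 0.05 from a fit over all genes. At every called member the 2 groups of libraries did not overlap. How often this holds over all called genes was not counted, so it adds no support for the members. The median log2 difference of the members was 0.40 without TMZ and 0.70 with TMZ, against 0.03 and 0.00 over all genes tested. Members were more abundant than other genes, with a median of 235 CPM against 30.7 CPM, and small differences are called more readily at high counts. MYL9, ANKRD1 and ACTG2 passed the filter on low counts only through SurvNESmut-GFP libraries and so were tested only because they were higher there. Without these 3, 23 of 34 members were called higher without TMZ and 24 of 34 with TMZ, a count added after the data were seen.

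**Figure D2:**
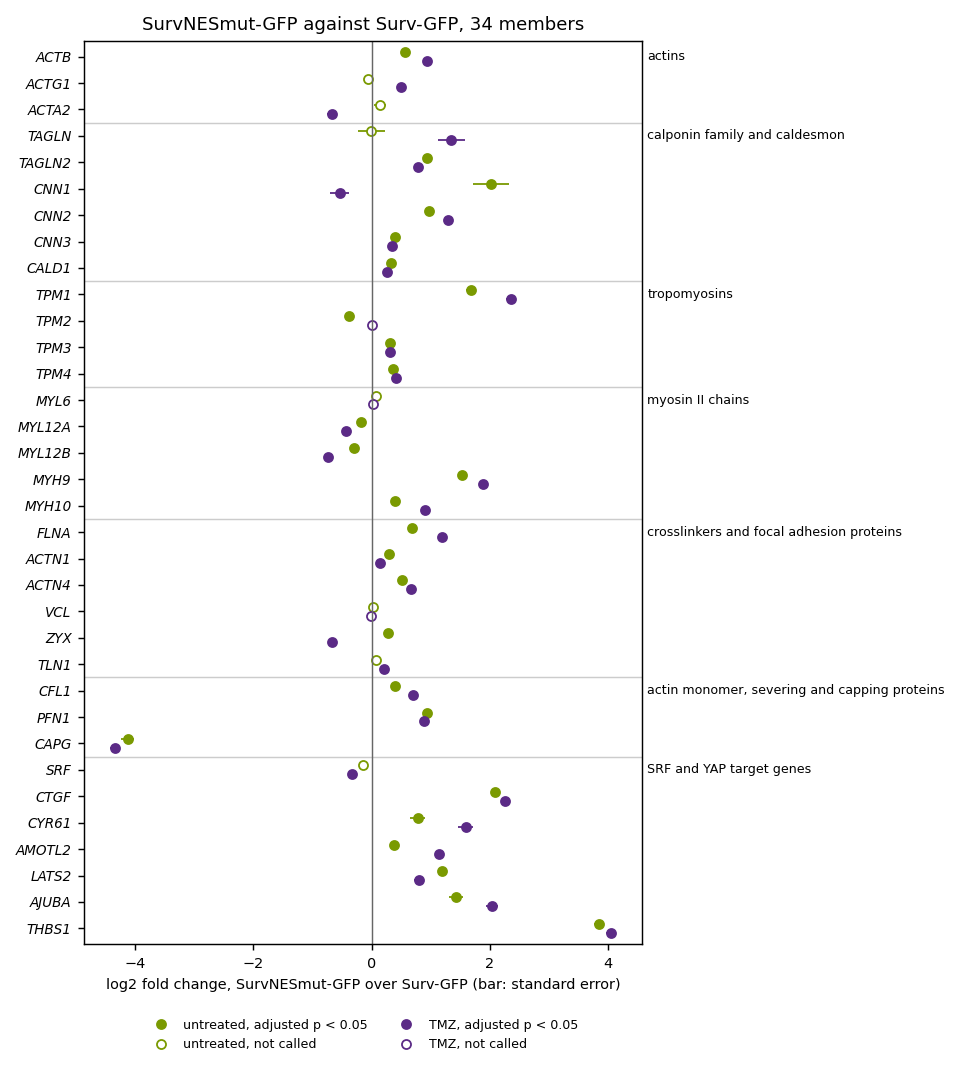
Log2 fold change of SurvNESmut-GFP over Surv-GFP for 34 members, untreated (green) and with TMZ (purple), with the standard error as a bar, filled where called and open where not. FLNC and the low-count genes MYL9, ANKRD1 and ACTG2 are left out. THBS1 stands at 3.85 and 4.06 and CAPG at -4.12 and -4.34, at opposite ends.

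TMZ moved members in both directions in each clone. In Surv-GFP, 10 of 37 members rose (27.0%) against 30.1% of all genes tested, and 15 fell (40.5%) against 28.9%. In SurvNESmut-GFP, 13 rose (35.1%) against 18.6% and 12 fell (32.4%) against 19.1%. Member medians were -0.04 and 0.06 on the log2 scale, against 0.00 in both comparisons over all genes. In the test of the difference itself, the TMZ effect was more positive in SurvNESmut-GFP for 13 members (35.1%) against 16.6% of all genes, and more negative for 6 (16.2%) against 20.2%. Its median was 0.05 over the members and 0.00 over all genes. MYL9, at 0 counts in Surv-GFP, could not be called in Surv-GFP or in the difference, and without it the member medians there were -0.07 and 0.02. Most of the 12 lower calls in SurvNESmut-GFP were lost when untreated library b of that clone was left out. That fit leaves the untreated group without a replicate, which lowers power at every gene. The share of all genes called in it was not compared, so the loss cannot be read as particular to the members. CDKN1A, the p21 gene that DNA damage induces, rose in both clones (log2 changes 3.52 and 1.96).

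**Figure D3:**
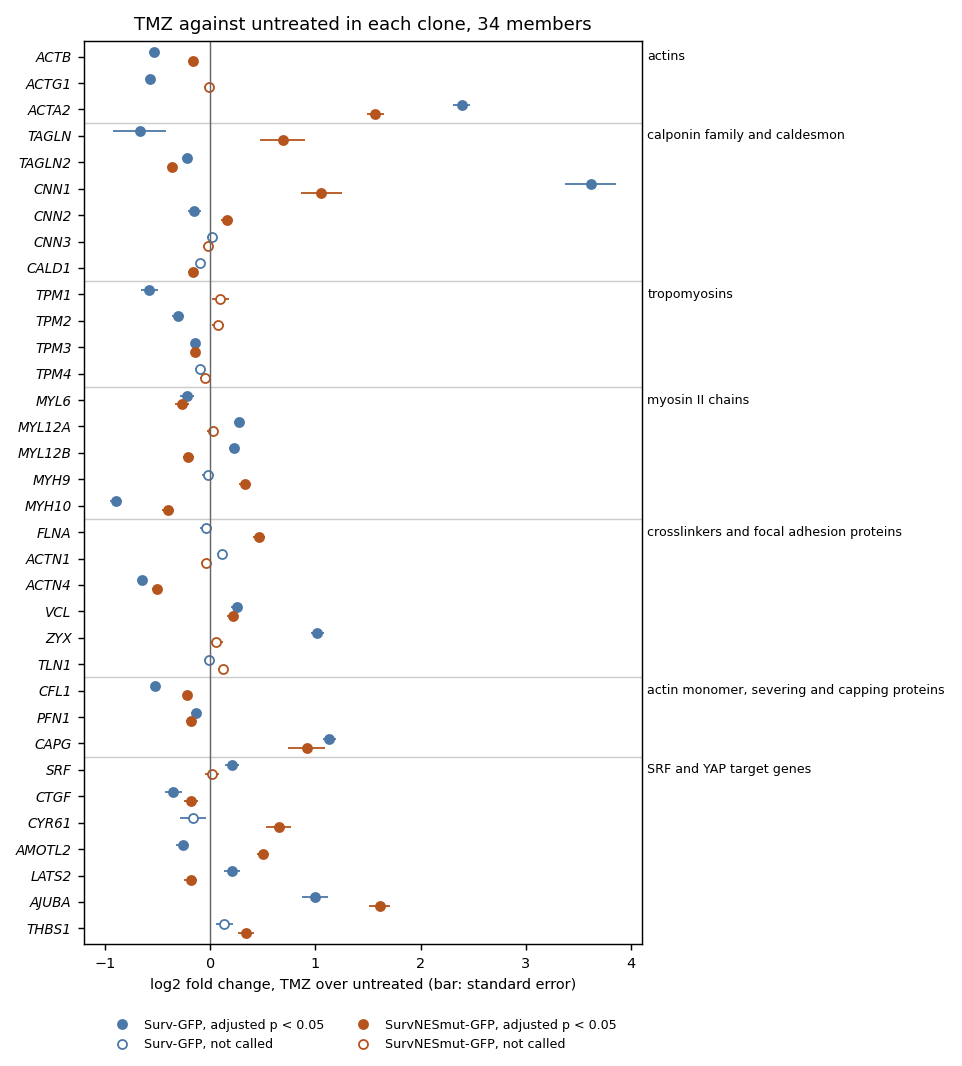
Log2 fold change of TMZ over untreated for 34 members in Surv-GFP (blue) and SurvNESmut-GFP (brown), with the standard error as a bar, filled where called and open where not. CNN1 (3.62 in Surv-GFP, 1.06 in SurvNESmut-GFP) and ACTA2 (2.39 and 1.57) are the members furthest to the right in Surv-GFP, and AJUBA (1.61) and ACTA2 in SurvNESmut-GFP.

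The cytoplasmic actins, the main actins of non-muscle cells, were lower with TMZ in Surv-GFP. ACTB stood at 2769 and 2594 CPM in untreated Surv-GFP and at 1837 and 1862 CPM with TMZ. In SurvNESmut-GFP it stood at 3894 and 4075 CPM untreated and at 3663 and 3452 CPM with TMZ. The order of the groups was the same in both libraries, with SurvNESmut-GFP above Surv-GFP throughout. ACTB fell by 0.54 ± 0.05 (SE) on the log2 scale with TMZ in Surv-GFP (adjusted p = 4.4e-08) and by 0.16 ± 0.05 in SurvNESmut-GFP (adjusted p = 0.010), and these effects differed by 0.37 ± 0.07 (adjusted p = 0.00030). The smaller fall was no longer called without untreated SurvNESmut-GFP library b (log2 change -0.13, adjusted p = 0.094). ACTG1, the other cytoplasmic actin, fell by 0.57 ± 0.05 in Surv-GFP (adjusted p = 4.6e-08), from 3308 and 3069 to 2114 and 2169 CPM. Its value in SurvNESmut-GFP was -0.01 ± 0.05 (adjusted p = 0.85), and the difference of 0.56 ± 0.07 was called (adjusted p = 1.2e-05). Untreated, ACTG1 did not differ between the clones in the fit of all libraries (-0.05, adjusted p = 0.35), though it was called lower without either SurvNESmut-GFP library with TMZ (-0.09 in both fits, adjusted p = 0.039 without a and 0.037 without b).

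The smooth muscle actin ACTA2, a textbook MRTF and SRF target, rose in both clones. It stood at 19.2 and 17.4 CPM in untreated Surv-GFP, at 91.9 and 100.1 CPM with TMZ, at 20.9 and 19.5 CPM in untreated SurvNESmut-GFP and at 56.5 and 63.7 CPM with TMZ. Untreated levels were not called different (0.14, adjusted p = 0.20), and the treated libraries of the clones did not overlap. The log2 change was 2.39 ± 0.08 in Surv-GFP (adjusted p = 3.6e-13), 1.57 ± 0.08 in SurvNESmut-GFP (adjusted p = 4.5e-10), and the difference between them -0.82 ± 0.12 (adjusted p = 4.6e-05). Exons of ACTA2 overlap those of genes on the other strand at 30.1% of their bases (among them FAS and ACTA2-AS1), and the strand setting of the counting is not given. FAS, a death receptor gene looked up after the ACTA2 values were seen, stood at 10.5 and 9.82 CPM in untreated Surv-GFP and at 37.1 and 31.8 CPM with TMZ, a log2 change of 1.76. In SurvNESmut-GFP it rose from 13.9 and 11.6 to 26.1 and 29.4 CPM (adjusted p = 7.7e-07), and the effects of the clones differed by -0.64 (adjusted p = 0.0047). Its part in the ACTA2 counts was not tested. ACTG2, the enteric smooth muscle actin, held 6 and 10 counts over the libraries of Surv-GFP without and with TMZ and 28 and 32 counts in SurvNESmut-GFP. The ratio between the clones was 4.5 without TMZ (95% counting interval 1.83 to 13.3) and 3.5 with TMZ (1.68 to 7.99). Without TMZ the call was lost without library a of either untreated group (log2 1.77, adjusted p = 0.067, for Surv-GFP, and 1.21, adjusted p = 0.20, for SurvNESmut-GFP, against 2.18 in the fit of all libraries), and with TMZ it was lost without Surv-GFP library a (1.70, adjusted p = 0.056) and with DESeq2 (1.79, adjusted p = 0.065).

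Calponins, transgelins and caldesmon bind along filaments and restrain myosin, and CNN1 and TAGLN mark contractile cells. CNN1, calponin 1, stood at 0.975 and 0.386 CPM in untreated Surv-GFP, at 8.29 and 8.67 CPM with TMZ, at 2.77 and 2.83 CPM in untreated SurvNESmut-GFP and at 5.73 and 5.93 CPM with TMZ. The 4 groups did not overlap, and the clone that was lower untreated was the higher with TMZ. CNN1 rose 12.3-fold in Surv-GFP (log2 3.62 ± 0.24, adjusted p = 2.2e-09, and 21.6-fold without untreated library a or 8.65-fold without b) and 2.08-fold in SurvNESmut-GFP (1.06 ± 0.20, adjusted p = 0.00048). The difference between these effects, -2.56 ± 0.34 (adjusted p = 2.6e-05), was the most negative among the members, at -3.38 without untreated Surv-GFP library a and -2.06 without b. Between the clones, CNN1 was 4.06-fold higher in SurvNESmut-GFP without TMZ (7.14-fold and 2.86-fold without the same 2 libraries) and lower with TMZ (log2 -0.54, adjusted p = 0.0069), a call that DESeq2 did not make (-0.56, adjusted p = 0.069).

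TAGLN, the transgelin of smooth muscle, was low and moved in opposite directions. It stood at 3.63 and 2.81 CPM in untreated Surv-GFP, at 1.87 and 2.18 CPM with TMZ, at 3.09 and 3.33 CPM in untreated SurvNESmut-GFP and at 6.20 and 4.10 CPM with TMZ. The fall in Surv-GFP (log2 -0.67 ± 0.25, adjusted p = 0.031) and the rise in SurvNESmut-GFP (0.69 ± 0.21, adjusted p = 0.018) both rest on few counts, while the difference of 1.36 ± 0.33 (adjusted p = 0.0042) was called under every alternative. The fall was not called by DESeq2 (adjusted p = 0.098) or without Surv-GFP library a of the untreated (-0.47, adjusted p = 0.23) or TMZ group (-0.56, adjusted p = 0.16). The rise was not called by DESeq2 (adjusted p = 0.11), nor without untreated SurvNESmut-GFP library a (0.63, adjusted p = 0.11) or b (0.74, adjusted p = 0.070), nor without SurvNESmut-GFP TMZ library a (0.35, adjusted p = 0.30). With TMZ, TAGLN was higher in SurvNESmut-GFP (1.35 ± 0.24, adjusted p = 8.0e-05), and 11.4% of its exon bases overlap PCSK7 on the other strand.

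The widely expressed TAGLN2, CNN2, CNN3 and CALD1 were all higher in SurvNESmut-GFP, without TMZ by 0.93, 0.98, 0.40 and 0.33 on the log2 scale and with TMZ by 0.78, 1.29, 0.35 and 0.26. TAGLN2 stood at 292 and 276 CPM in untreated Surv-GFP, at 247 and 241 CPM with TMZ, at 534 and 549.7 CPM in untreated SurvNESmut-GFP and at 421 and 418 CPM with TMZ. It fell with TMZ in Surv-GFP (-0.22, adjusted p = 0.00091) and in SurvNESmut-GFP (-0.37, adjusted p = 1.2e-05). CNN2 was called lower with TMZ in Surv-GFP (-0.15, adjusted p = 0.050) and higher in SurvNESmut-GFP (0.16, adjusted p = 0.042), both at the edge of the threshold. The first was lost without Surv-GFP untreated b (-0.09, adjusted p = 0.37), TMZ a (-0.17, adjusted p = 0.11) or TMZ b (-0.17, adjusted p = 0.11), and without SurvNESmut-GFP untreated a or b (-0.15 and adjusted p = 0.070 in both). The second was lost without any single library except SurvNESmut-GFP TMZ b, with adjusted p = 0.053 to 0.35. Both were also lost with DESeq2 (adjusted p = 0.075 and 0.13) and with a replicate block (adjusted p = 0.062 and 0.056). In the fit to the 4 libraries compared, the second was lost as well (adjusted p = 0.083). The difference of 0.31 between the effects (adjusted p = 0.0099) was lost only without untreated Surv-GFP library b (0.24, adjusted p = 0.075). CALD1 fell in SurvNESmut-GFP (-0.17, adjusted p = 0.0081), a call lost without untreated library b of that clone (-0.13). In Surv-GFP the value of CALD1 was -0.09 (adjusted p = 0.089). It passed with both other scalings, both other filters and the fit to the 4 libraries compared (adjusted p = 0.016 to 0.041). CNN3 stood at 283 and 284 CPM in untreated Surv-GFP and at 278 and 296 CPM with TMZ, groups that overlap.

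Tropomyosins line the groove of the actin filament and set which motors can bind it. TPM1 stood at 205 and 227 CPM in untreated Surv-GFP, at 157 and 131 CPM with TMZ, at 669 and 714 CPM in untreated SurvNESmut-GFP and at 796 and 682 CPM with TMZ. The SurvNESmut-GFP libraries were all far above the Surv-GFP libraries. TPM1 was 3.21-fold higher in SurvNESmut-GFP without TMZ (log2 1.68 ± 0.08, adjusted p = 2.5e-11) and 5.13-fold higher with TMZ (2.36 ± 0.08, adjusted p = 6.4e-13). It fell with TMZ in Surv-GFP (-0.58 ± 0.08, adjusted p = 1.4e-05), its value in SurvNESmut-GFP was 0.10 ± 0.08 (adjusted p = 0.37, and 0.21, adjusted p = 0.013, without TMZ library b), and the difference was 0.68 ± 0.11 (adjusted p = 0.00021). Of its exon bases, 21.4% overlap TPM1-AS or another gene on the other strand. TPM2 was the tropomyosin that was lower in SurvNESmut-GFP: it stood at 103 and 104 CPM in untreated Surv-GFP and at 76.5 and 83.1 CPM in untreated SurvNESmut-GFP (-0.37, adjusted p = 3.0e-05). With TMZ it stood at 80.5 and 86.3 against 87.1 and 80.4 CPM, groups that overlap. TPM2 fell with TMZ in Surv-GFP (-0.31, adjusted p = 0.00022), and the effects of the clones differed by 0.38 (adjusted p = 0.0019).

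TPM3 and TPM4 were higher in SurvNESmut-GFP by 0.31 and 0.36 without TMZ and by 0.31 and 0.41 with TMZ on the log2 scale. TPM3 fell by 0.14 with TMZ in each clone (adjusted p = 0.014 and 0.022). In Surv-GFP the call was lost without untreated library a (-0.15) or b (-0.13), and in SurvNESmut-GFP without untreated library b (-0.11). The SurvNESmut-GFP call was also lost with library size alone (adjusted p = 0.080) and in the fit to the 4 libraries compared (adjusted p = 0.066). TPM4 had values of -0.10 (adjusted p = 0.091) and -0.05 (adjusted p = 0.43) with TMZ. The first passed in 7 of 16 alternatives. These were both other scalings (adjusted p = 0.041 and 0.045), both other filters (0.049 and 0.019) and the fit to the 4 libraries compared (0.035). The others left out either SurvNESmut-GFP TMZ library (-0.10 in both fits). TPM4 shares 7.14% of its 50-base words with other genes, the highest share among the members, so that some of its reads could be split or lost in counting.

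Myosin II pulls on filaments through the heavy chains MYH9 (myosin IIA) and MYH10 (IIB), with the regulatory light chains MYL9, MYL12A and MYL12B and the essential light chain MYL6. MYH9 stood at 824 and 882 CPM in untreated Surv-GFP and at 854 and 825 CPM with TMZ. In SurvNESmut-GFP it stood at 2440 and 2499 CPM untreated and at 3342 and 2865 CPM with TMZ. It was 2.90-fold higher in SurvNESmut-GFP without TMZ (log2 1.53 ± 0.06, adjusted p = 2.0e-12) and 3.70-fold higher with TMZ (1.89 ± 0.06, adjusted p = 2.3e-13). MYH9 rose with TMZ in SurvNESmut-GFP (0.33, adjusted p = 0.00035) while its Surv-GFP groups overlap, and the difference of 0.35 was called (adjusted p = 0.0036). MYH10 fell with TMZ in both clones, from 422 and 411 to 217 and 230 CPM in Surv-GFP (-0.90 ± 0.06, adjusted p = 9.4e-10) and from 555 and 547 to 392 and 441 CPM in SurvNESmut-GFP (-0.40 ± 0.06, adjusted p = 2.7e-05). The fall was smaller in SurvNESmut-GFP, by 0.50 ± 0.08 (adjusted p = 0.00013), and MYH10 was the higher there by 0.40 without TMZ and 0.90 with TMZ.

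MYL9, the light chain typical of contractile cells, had 0 counts in all 4 Surv-GFP libraries and 162 and 164 counts over the libraries of SurvNESmut-GFP without and with TMZ. At the limit of 3 counts that 0 counts allow over a group, it was at least 52.1-fold higher in SurvNESmut-GFP without TMZ and at least 59.9-fold higher with TMZ. In SurvNESmut-GFP it stood at 4.39 and 4.5 CPM untreated and at 5.03 and 4.92 CPM with TMZ (log2 0.16, adjusted p = 0.50). The adjacent copies MYL12A and MYL12B, which code for nearly the same light chain, went the other way and were lower in SurvNESmut-GFP. MYL12B stood at 168 CPM in both untreated Surv-GFP libraries, at 194 and 198 CPM with TMZ, at 135 and 137 CPM in untreated SurvNESmut-GFP and at 114 and 121 CPM with TMZ. It rose in Surv-GFP (0.23, adjusted p = 0.00068), fell in SurvNESmut-GFP (-0.21, adjusted p = 0.0035), and was lower in SurvNESmut-GFP by 0.30 without TMZ and by 0.74 with TMZ. The effects differed by -0.43 (adjusted p = 0.00013). MYL12A rose in Surv-GFP by 0.27 (adjusted p = 0.00014), and its difference of -0.25 between the effects was called (adjusted p = 0.010) but not with DESeq2 (-0.24, adjusted p = 0.051). MYL12B shares 5.86% of its 50-base words with other genes, MYL12A among them, so the split of reads between the pair is uncertain. MYL6 fell by 0.22 in Surv-GFP (adjusted p = 0.0076) and 0.27 in SurvNESmut-GFP (adjusted p = 0.0035), calls that were lost without the untreated library b of the clone in question (-0.18, adjusted p = 0.083, and -0.15, adjusted p = 0.099). Untreated, MYL6 overlapped between the clones, with 0.08 (adjusted p = 0.30) in the fit of all libraries and 0.20 (adjusted p = 0.014) without untreated SurvNESmut-GFP library a.

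Filamin and the actinins crosslink filaments, and vinculin, talin and zyxin link them to integrins. FLNA stood at 1910 and 1980 CPM in untreated Surv-GFP, at 1908 and 1880 CPM with TMZ, at 3132 and 3116 CPM in untreated SurvNESmut-GFP and at 4671 and 3960 CPM with TMZ. It rose with TMZ in SurvNESmut-GFP (0.47 ± 0.06, adjusted p = 9.3e-06), was -0.04 in Surv-GFP (adjusted p = 0.59), and the effects differed by 0.50 ± 0.08 (adjusted p = 0.00015). ZYX, the tension-sensitive adhesion protein zyxin, rose in the other clone. It stood at 173 and 168 CPM in untreated Surv-GFP and at 338 and 353 CPM with TMZ, and at 201 and 216 CPM in untreated SurvNESmut-GFP and 231 and 202 CPM with TMZ. ZYX rose 2.03-fold in Surv-GFP (log2 1.02 ± 0.06, adjusted p = 5.5e-10), whereas its SurvNESmut-GFP groups overlap (0.06, adjusted p = 0.49), and without TMZ library b of that clone the value was 0.16 (adjusted p = 0.026). The difference was -0.96 ± 0.09 (adjusted p = 3.8e-07). ACTN4 fell from 852 and 834 to 533 and 538 CPM in Surv-GFP (-0.65, adjusted p = 6.6e-09) and from 1239 and 1182 to 818 and 882 CPM in SurvNESmut-GFP (-0.51, adjusted p = 4.2e-07). The difference of 0.14 was not called (adjusted p = 0.11), but was without SurvNESmut-GFP TMZ library a (0.19, adjusted p = 0.014).

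VCL rose slightly in both clones (0.25, adjusted p = 0.00057, and 0.21, adjusted p = 0.0048) and did not pass between them, and its rise in SurvNESmut-GFP was lost without untreated library b (0.15, adjusted p = 0.097). ACTN1 was higher in SurvNESmut-GFP without TMZ (0.29, adjusted p = 4.3e-05) and with TMZ (0.15, adjusted p = 0.011), the latter not without library a of Surv-GFP with TMZ (0.10, adjusted p = 0.18) or of SurvNESmut-GFP with TMZ (0.08, adjusted p = 0.15). Its TMZ value in Surv-GFP was 0.11 (adjusted p = 0.058), and it passed without SurvNESmut-GFP TMZ library a or b (0.11 and adjusted p = 0.020 in both), while the difference passed without a (-0.17, adjusted p = 0.038). TLN1 was 0.21 higher in SurvNESmut-GFP with TMZ (adjusted p = 0.00065). The TMZ value of TLN1 in SurvNESmut-GFP was 0.12 (adjusted p = 0.051), and without TMZ library b it was 0.15 (adjusted p = 0.014), with a difference from Surv-GFP of 0.16 (adjusted p = 0.045).

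Cofilin severs filaments, profilin feeds monomers to growing ends and the capping protein CAPG closes them. CFL1 stood at 1329 and 1283 CPM in untreated Surv-GFP and 912 and 906 CPM with TMZ, and at 1730 and 1723 CPM in untreated SurvNESmut-GFP and 1503 and 1460 CPM with TMZ. It fell by 0.52 ± 0.04 in Surv-GFP (adjusted p = 2.1e-08) and by 0.22 ± 0.04 in SurvNESmut-GFP (adjusted p = 0.00058), and these falls differed by 0.30 ± 0.06 (adjusted p = 0.00083). PFN1 was higher in SurvNESmut-GFP by 0.93 without TMZ and 0.89 with TMZ. It fell with TMZ by 0.14 in Surv-GFP (adjusted p = 0.023) and 0.18 in SurvNESmut-GFP (adjusted p = 0.0064). The former was lost without Surv-GFP untreated a (-0.14, adjusted p = 0.080), untreated b (-0.13, adjusted p = 0.11) or TMZ a (-0.13, adjusted p = 0.10), and the latter without untreated SurvNESmut-GFP library b (-0.15, adjusted p = 0.081).

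CAPG had the largest deficit in SurvNESmut-GFP among the members. It stood at 42.9 and 39.6 CPM in untreated Surv-GFP, at 90.9 and 89.8 CPM with TMZ, at 2.17 and 2.56 CPM in untreated SurvNESmut-GFP and at 4.62 and 4.29 CPM with TMZ. CAPG rose with TMZ in each clone, by 2.19-fold in Surv-GFP (log2 1.13 ± 0.06, adjusted p = 1.9e-10) and by 1.89-fold in SurvNESmut-GFP (0.92 ± 0.17, adjusted p = 0.00051). The difference between these effects was -0.22 ± 0.19 (adjusted p = 0.43). CAPG was 17.4-fold lower in SurvNESmut-GFP without TMZ (-4.12 ± 0.11, adjusted p = 1.8e-14) and 20.2-fold lower with TMZ (-4.34 ± 0.09, adjusted p = 2.6e-15).

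**Figure D4:**
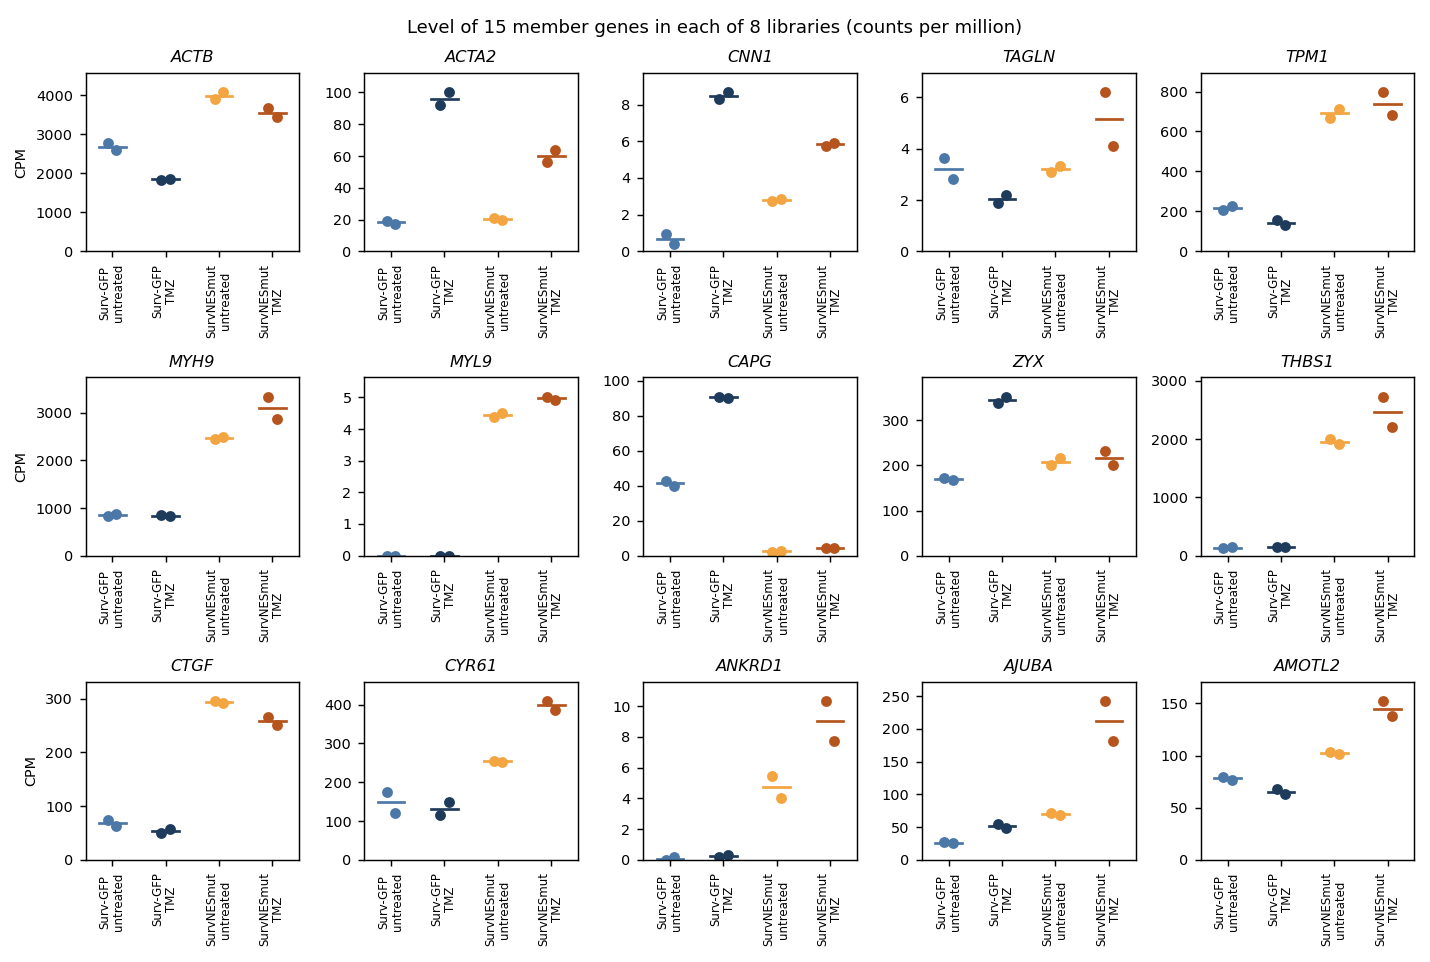
CPM of 15 members in each of the 8 libraries, on linear axes that start at 0, with a point for each library and a line at the mean of its group. MYL9 is at 0 in all Surv-GFP libraries, CAPG is at 2.17 to 4.62 CPM in the SurvNESmut-GFP libraries, and ACTA2 and CNN1 are high in the TMZ libraries of both clones.

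Among the SRF and YAP target genes, 7 of 8 were higher in SurvNESmut-GFP without TMZ, and SRF itself was the exception, against 34.7% of all genes tested. ANKRD1, among the 7, passed the filter only through SurvNESmut-GFP and so was tested only because it was higher there. THBS1, the matrix protein thrombospondin 1, stood at 129 and 142 CPM in untreated Surv-GFP and at 155 and 142 CPM with TMZ. In SurvNESmut-GFP it stood at 1993 and 1922 CPM untreated and at 2729 and 2213 CPM with TMZ. The clones were an order of magnitude apart in every library, with THBS1 14.4-fold higher in SurvNESmut-GFP without TMZ (log2 3.85 ± 0.09, adjusted p = 2.8e-15) and 16.6-fold with TMZ (4.06 ± 0.09, adjusted p = 2.6e-15). THBS1 rose with TMZ in SurvNESmut-GFP (0.34, adjusted p = 0.0020). Its value in Surv-GFP was 0.13 (adjusted p = 0.18, and 0.14 with adjusted p = 0.022 without SurvNESmut-GFP TMZ library a and 0.13 with 0.021 without b). The difference of 0.21 (adjusted p = 0.16) became 0.35 (adjusted p = 0.00031) without SurvNESmut-GFP TMZ library b.

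The matricellular genes CTGF and CYR61 are the usual YAP readouts. CTGF stood at 73.9 and 63.9 CPM in untreated Surv-GFP, at 49.8 and 58.3 CPM with TMZ, at 296 and 292 CPM in untreated SurvNESmut-GFP and at 267 and 251 CPM with TMZ. It was 4.27-fold higher in SurvNESmut-GFP without TMZ (log2 2.09 ± 0.07, adjusted p = 3.7e-13) and 4.79-fold with TMZ (2.26 ± 0.07, adjusted p = 2.5e-13). Unlike the clone difference, the effect of TMZ was a fall, of 0.35 in Surv-GFP (adjusted p = 0.0010) and 0.18 in SurvNESmut-GFP (adjusted p = 0.037). The latter was lost without SurvNESmut-GFP untreated a (-0.18), untreated b (-0.20) or TMZ b (-0.14), and with library size alone (-0.15, adjusted p = 0.080). The difference between the falls was 0.17 (adjusted p = 0.22), and 0.31 (adjusted p = 0.037) without Surv-GFP TMZ library b. CYR61 stood at 175 and 121 CPM in untreated Surv-GFP, at 115 and 150 CPM with TMZ, at 255 and 253 CPM in untreated SurvNESmut-GFP and at 410 and 387 CPM with TMZ. Its Surv-GFP groups overlap (-0.16 ± 0.13, adjusted p = 0.28), and a fall was called without untreated library b (-0.40, adjusted p = 0.0057) or TMZ library b (-0.40, adjusted p = 0.023). CYR61 rose in SurvNESmut-GFP (0.65 ± 0.12, adjusted p = 0.00046), and the difference of 0.81 ± 0.17 was called (adjusted p = 0.0017). It was 1.72-fold higher in SurvNESmut-GFP without TMZ and 3.02-fold with TMZ.

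ANKRD1, a nuclear stretch-response protein and a direct YAP target, had 3 and 10 counts over the Surv-GFP libraries without and with TMZ and 172 and 300 counts in SurvNESmut-GFP. The Surv-GFP libraries stood at 0 and 0.166 CPM untreated and at 0.214 and 0.344 CPM with TMZ. The ratio of the clones was 55.3 without TMZ (95% counting interval 18.6 to 271) and 32.9 with TMZ (17.6 to 69.2). The fitted log2 difference without TMZ was 5.73, and 4.78 without untreated Surv-GFP library a, while without library b that group has 0 counts. ANKRD1 rose in SurvNESmut-GFP, from 5.42 and 4.0 to 10.3 and 7.75 CPM (log2 0.94 ± 0.20, adjusted p = 0.0014). In Surv-GFP the counts gave a ratio of 3.33 (0.857 to 18.8), which was not called (adjusted p = 0.17) except without untreated library b, which leaves that group at 0 counts (adjusted p = 0.047).

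AJUBA and AMOTL2 bind and restrain the Hippo kinases or YAP, and LATS2 is one of these kinases, all under the control of YAP. AJUBA stood at 26.6 and 25.2 CPM in untreated Surv-GFP, at 55.1 and 48.2 CPM with TMZ, at 71.1 and 67.7 CPM in untreated SurvNESmut-GFP and at 243 and 181 CPM with TMZ. Each group lay above the one before it without overlap. AJUBA rose with TMZ by 1.0 ± 0.12 in Surv-GFP (adjusted p = 2.8e-06) and by 1.61 ± 0.10 in SurvNESmut-GFP (adjusted p = 3.4e-09), a difference of 0.61 ± 0.16 (adjusted p = 0.0063). It was 2.68-fold higher in SurvNESmut-GFP without TMZ and 4.10-fold with TMZ. AMOTL2 moved in opposite directions, from 79.9 and 77.0 to 67.8 and 63.1 CPM in Surv-GFP (-0.26, adjusted p = 0.0015) and from 103 and 102 to 153 and 138 CPM in SurvNESmut-GFP (0.50, adjusted p = 3.4e-06), a difference of 0.76 ± 0.08 (adjusted p = 2.9e-06). It was higher in SurvNESmut-GFP by 0.39 without and 1.15 with TMZ.

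LATS2 was higher in SurvNESmut-GFP by 1.19 without TMZ and 0.80 with TMZ. With TMZ it was called higher in Surv-GFP (0.21, adjusted p = 0.026) and lower in SurvNESmut-GFP (-0.19, adjusted p = 0.031), with a difference of -0.40 (adjusted p = 0.0050). The rise was lost without Surv-GFP untreated b (0.16, adjusted p = 0.18) or TMZ b (0.11, adjusted p = 0.35), the fall without SurvNESmut-GFP untreated a (-0.17, adjusted p = 0.15), untreated b (-0.21, adjusted p = 0.078) or TMZ b (-0.17, adjusted p = 0.082), and the difference without Surv-GFP TMZ b (-0.30, adjusted p = 0.055). DESeq2 called neither the rise nor the fall (adjusted p = 0.14 for each), the rise was also lost under both other filters (adjusted p = 0.060 and 0.066) and the fall with library size alone (adjusted p = 0.074). SRF rose in Surv-GFP (0.21, adjusted p = 0.012), a call lost without untreated b (0.12, adjusted p = 0.19), TMZ b (0.14, adjusted p = 0.17) and with DESeq2 (0.19, adjusted p = 0.079). SRF was lower in SurvNESmut-GFP with TMZ (-0.34, adjusted p = 0.00025). Untreated it gave -0.15 (adjusted p = 0.066), which passed in 10 of 16 alternatives, among them without Surv-GFP untreated b (-0.23, adjusted p = 0.017), Surv-GFP TMZ a (-0.18, adjusted p = 0.031) or b (-0.18, adjusted p = 0.033) and SurvNESmut-GFP TMZ a or b (-0.18 and adjusted p = 0.010 in both), and the difference of its TMZ effects passed without Surv-GFP untreated a (-0.29, adjusted p = 0.039).

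Of 21 Hippo and YAP regulators, 4 rose and 8 fell with TMZ in Surv-GFP (median -0.06, against 30.1% and 28.9% of all genes), and 3 rose and 5 fell in SurvNESmut-GFP (median 0.02, against 18.6% and 19.1%). Between the clones, 10 were higher and 8 lower without TMZ, and 10 and 7 with TMZ (medians 0.16 and 0.09), against 34.7% and 29.4% of all genes without TMZ and 34.5% and 34.7% with TMZ. In the difference of effects 4 were more positive and 5 more negative (median 0.01, against 16.6% and 20.2%). WWC1, among the 10 higher in both clone comparisons, passed the filter on low counts only through SurvNESmut-GFP libraries (5.15 to 7.31 CPM). In Surv-GFP it stood at 0.160 to 0.488 CPM, so that it was tested only because it was higher in the other clone. YAP1 itself stood at 59.7 to 68.9 CPM over all 8 libraries and was called in none of the 5 comparisons. WWTR1, the gene of TAZ, fell from 551 and 594 to 364 and 403 CPM in Surv-GFP (-0.58) and from 487 and 518 to 214 and 266 CPM in SurvNESmut-GFP (-1.07). Of the TEAD genes, TEAD1 and TEAD2 were each lower in untreated SurvNESmut-GFP by 0.77, and TEAD4 was higher by 0.43 without TMZ and by 0.77 with TMZ.

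Of 17 further YAP targets, 12 were higher and 2 lower in SurvNESmut-GFP without TMZ (median 0.70, against 34.7% and 29.4% of all genes), and 12 and 5 with TMZ (median 0.59, against 34.5% and 34.7%). With TMZ, 9 rose and 4 fell in Surv-GFP (median 0.22, against 30.1% and 28.9% of all genes), 10 rose and 3 fell in SurvNESmut-GFP (against 18.6% and 19.1%), and the effects differed upward at 8 and downward at 5 (against 16.6% and 20.2%). Over the 16 of these genes with counts in both clones, the last medians were 0.35 and 0.10. MYOF and CRIM1 were each 1.71 higher on the log2 scale in untreated SurvNESmut-GFP, whereas RBMS3 was lower by 2.00. FOXF2, counted as lower without and with TMZ, stood at 6.74 to 8.78 CPM in Surv-GFP and had 0 counts in SurvNESmut-GFP. It thus passed the filter on low counts only through Surv-GFP libraries. Of these targets IGFBP3 and GADD45A, which DNA damage also induces, rose by 4.81 and 3.82 in Surv-GFP and by 0.89 and 1.53 in SurvNESmut-GFP. The 8 SRF immediate early genes, which answer serum through SRF with ternary complex factors, ran the other way between the clones. Without TMZ, 7 were lower and 0 higher in SurvNESmut-GFP (median -1.05, against 29.4% and 34.7% of all genes), and with TMZ 5 were lower and 1, FOSB, was higher (median -0.59, against 34.7% and 34.5%). With TMZ, 4 fell and 0 rose in Surv-GFP (median -0.36, against 28.9% and 30.1%), 2 fell and 1 rose in SurvNESmut-GFP (median -0.29, against 19.1% and 18.6%), and the effects differed upward at 2 and downward at 0 (median 0.25, against 16.6% and 20.2%). FOS stood at 512 and 279 CPM in untreated Surv-GFP and at 101 and 75.2 CPM in untreated SurvNESmut-GFP. In both untreated groups library a stood above library b at each of the 8 genes, and in both TMZ groups library b stood above a. In untreated Surv-GFP these were 1504 and 1100.4 CPM at EGR1, 474 and 327 CPM at IER2 and 194 and 108 CPM at EGR3. EGR1 stood at 771 and 1177 CPM in Surv-GFP with TMZ. In SurvNESmut-GFP it stood at 572 and 478 CPM untreated and at 352 and 499.7 CPM with TMZ. In Surv-GFP the members CTGF and CYR61 also had library a above b untreated and b above a with TMZ, whereas THBS1 had the reverse order. The source of this spread, which bears on the TMZ effects of these genes, was not tested.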

How the data were processed

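RNA-seq of 8 libraries was analysed from the deposited table, in which the authors give raw read counts per gene (no normalization). Per the labels, the processing tools were STAR 2.5.0b, Cufflinks 2.2.1 and edgeR. For the counting program, annotation, build and strand setting, nothing is stated in the sources used here. Deposited tables of the authors' own comparisons (5 files of fold changes and p-values) were not used. The 2 rows that name no gene (no feature, 11.2% to 14.3% of counts, and ambiguous, 1.19% to 1.28%) were left out.

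Groups follow the sample labels. Genes passed edgeR's filterByExpr by group, which kept 14201 of 26364. Libraries were scaled by TMM, and 4 group means were fitted to all 8 libraries with the quasi-likelihood F test of edgeR 4.0.16 (legacy method, R 4.3.3), with Benjamini-Hochberg adjustment over all genes tested and a threshold of 0.05. The SE is the log2 fold change divided by the root of F. The common biological coefficient of variation was 4.09%. Intervals and limits for low counts are 95% and cover counting error only. Alternatives were DESeq2 (1.42.0), other scalings and filters, the newer edgeR method, a term for the replicate letter, a fit to the 4 libraries of a comparison, and leaving out each library in turn. The alternatives named at a gene are not always all of those that changed its call.

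The members, roles and gene lists were chosen with earlier results of these data known. All members are named, and both libraries of each group are given for the 3 members with the largest called change in each direction of each comparison and for some others. Exon unions, overlaps and 50-base words came from GENCODE v29, promoter windows from RefSeq. 1 of the gene lists is not reported here.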

Additional observations from a re-analysis of the deposited data

Results flagged for a closer look

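The effect of TMZ differed between the clones at 19 members by the test of the difference itself (SurvNESmut-GFP minus Surv-GFP, log2 scale, edgeR adjusted p under 0.05). Of the members tested, 35.1% were more positive against 16.6% of all genes tested. More negative were 16.2% against 20.2%, a share not above that of all genes. It was more positive in SurvNESmut-GFP at ACTB (0.37), ACTG1 (0.56), TAGLN (1.36), CNN2 (0.31), TPM1 (0.68), TPM2 (0.38), MYH9 (0.35), MYH10 (0.50), FLNA (0.50), CFL1 (0.30), CYR61 (0.81), AMOTL2 (0.76) and AJUBA (0.61). It was more negative at ACTA2 (-0.82), CNN1 (-2.56), MYL12A (-0.25), MYL12B (-0.43), ZYX (-0.96) and LATS2 (-0.40). The single effects behind these differences varied. ACTB, ACTG1, TPM1, TPM2, MYH10 and CFL1 fell in Surv-GFP and fell by less or were not called in SurvNESmut-GFP, MYH9, FLNA and CYR61 were called only in SurvNESmut-GFP, and ACTA2 and CNN1 rose in both clones. In TAGLN, CNN2, AMOTL2, MYL12B and LATS2 the calls of the clones had opposite signs, though those of TAGLN, CNN2 and LATS2 were each lost in some alternatives. Causes were not tested.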

How the results depend on the processing

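Under 16 alternatives (15 for the difference between TMZ effects), the calls held throughout for 18 of 25 members in the TMZ effect of Surv-GFP, 15 of 25 in that of SurvNESmut-GFP, 16 of 19 in the difference between them, 29 of 30 between the untreated clones and 31 of 34 between the clones with TMZ. No called member changed sign in any of these fits. Of the members not called, 6, 3, 6, 3 and 0 passed in at least 1 alternative, in the same order of comparisons. The counts of members called stayed within 1.5 times the main count, except that the members lower with TMZ in SurvNESmut-GFP numbered 5 to 12 when a library was left out (12 with all libraries). With DESeq2, 8 members rose and 13 fell in Surv-GFP. No other scaling moved the median log2 change of all genes by as much as 0.1. Deviations of the lettered libraries from their group means correlated at -0.07 to 0.08 between groups. Over the genes tested, the letters thus showed no shared shift, which does not settle whether the libraries are paired. A replicate block left 10 members higher and 14 lower with TMZ in Surv-GFP, 12 of each in SurvNESmut-GFP, 13 and 6 in the difference, 26 and 4 between the untreated clones and 27 and 7 with TMZ. Depth limits ACTG2, ANKRD1, MYL9, CNN1 and TAGLN, where 3 counts correspond to 0.159 to 0.190 CPM in a library.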

Other observations

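In SurvNESmut-GFP with TMZ, library a stood above library b at MYH9 (3342 and 2865 CPM), FLNA (4671 and 3960 CPM), THBS1 (2729 and 2213 CPM), AJUBA (243 and 181 CPM), ANKRD1 (10.3 and 7.75 CPM) and TPM1 (796 and 682 CPM), and below it at MYH10 (392 and 441 CPM), ACTN4 (818 and 882 CPM) and ACTA2 (56.5 and 63.7 CPM). Library a also held 14.3% of its counts on no annotated feature, against 12.1% in library b. Whether these values share a source was not tested.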
